A study of Homo sapiens with 3 samples.

Results

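The insulin-like growth factor (IGF) axis was followed in Huh7 cells through 10 genes, namely the ligand IGF2, the receptors IGF1R, IGF2R and INSR, the substrates IRS1 and IRS2, and the binding proteins IGFBP1, IGFBP2, IGFBP3 and IGFBP4. Their probes were found through the RefSeq accession that the scanner files give for each probe, and all 10 genes of the 10 were present, with 12 of the 34110 gene probes. The 34110 probes carried 19735 gene symbols. Huh7 is an established human hepatoma line, grown here in DMEM with fetal calf serum, penicillin and streptomycin. One group had no chlorogenic acid (CA), a plant polyphenol. The other groups had CA at 50 μM or at 100 μM for 24 h. The paper dissolved CA in DMSO and took DMSO as the vehicle for its untreated control, while the label of the untreated array gives no treatment. Whether that array had DMSO, and whether DMSO rose with the dose of CA, is not stated for these arrays. The paper describes trypsinizing CA-treated cells into medium without serum for its migration assay, and its array methods do not name this step. If the treated cells here had it and the untreated cells did not, its effect cannot be told apart from that of CA. Each group was 1 one-colour Agilent array, 3 arrays in all, so that no difference below has a replicate check and no test across samples was made. The comparisons ask whether the mRNA levels of this growth factor axis differed under CA, a compound studied here for its effect on tumor cell differentiation.

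IGF2 is a fetal growth factor made by the liver before birth, and many hepatomas make it again. It acts on cells through the tyrosine kinase receptor IGF1R and through the insulin receptor INSR, whereas IGF2R takes it up and carries it to lysosomes. The active receptors phosphorylate IRS1 and IRS2, which dock PI3-kinase and so switch on AKT and the TOR kinase and keep the FOXO transcription factors out of the nucleus. The IGFBP proteins bind IGF outside the cell and set how much of it reaches the receptors. In hepatocytes, IGFBP1, IRS2 and the enzymes of glucose production are FOXO1 targets that insulin turns down.

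Because the binding of FOXO factors to promoters is the link between this pathway and several of its own genes, 3 promoter stretches are shown, each the 100 bases before the first transcribed base, 5′ to 3′ on the strand of the gene, from RefSeq on GRCh38.p14. The IRS2 stretch (chr13:109786584-109786683, minus strand) is shown for the 7 letters in capitals, TGTTTTG, which is CAAAACA, the core of the insulin response element, read on the other strand. The IGFBP4 stretch (chr17:40443350-40443449, plus strand) has a TATAAA in capitals. The IGF1R stretch (chr15:98648439-98648538, plus strand) is shown as the most GC-rich of the promoters of these genes and has neither.
IRS2: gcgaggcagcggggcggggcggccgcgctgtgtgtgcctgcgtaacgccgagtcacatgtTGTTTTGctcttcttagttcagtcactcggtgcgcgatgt
IGFBP4: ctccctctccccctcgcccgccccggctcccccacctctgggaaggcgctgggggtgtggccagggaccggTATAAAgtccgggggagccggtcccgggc
IGF1R: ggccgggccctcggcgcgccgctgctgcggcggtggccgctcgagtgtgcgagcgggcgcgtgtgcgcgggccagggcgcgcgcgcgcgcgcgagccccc

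RefSeq windows of 250 bases before and 50 bases after the start were given for 8 of the 10 genes, in 10 windows because IGFBP2 had several, and none was given for IGF2 or IGFBP1. CAAAACA or its reverse complement TGTTTTG lay in 4.30% of all 35116 promoter windows. Among the windows of these genes it lay in that of IRS2, at position -40 counted from the first transcribed base. The related FOXO core GTAAACA, with its reverse complement TGTTTAC, lay in 2.98% of all windows and in none of the 10. TATAAA, searched on the strand of the gene, lay in 6.80% of all windows and in that of IGFBP4, at position -29. These letters are matches only and were not set against the binding of any factor. Over the 250 bases before the start, the 10 windows had a median GC content of 76.2% (56.4% to 81.2%), against a median of 58.0% over all promoters and a 90th percentile of 75.2%.

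Levels are given as the processed signal of Feature Extraction in intensity units, with the error that this program states for a spot. Ratios are differences of log2 signal after each array was scaled to its 75th percentile, which was 1059 intensity units on the untreated array, 1207 at CA 50 μM and 1249 at CA 100 μM. Equal raw signals on 2 arrays therefore give a ratio below 0 for the treated array. A probe counted as measured if both arrays of a comparison had it well above background, and a change of at least 1.5-fold, 0.58 on the log2 scale, is counted as a size and not as a test. From probes printed 10 times, the median SD of the log2 ratio between spots of a probe was 0.065 for the lower dose and 0.064 for the higher one against untreated, rising to 0.13 in the dimmest of 4 classes of signal. This covers printing and scanning, and leaves out the spread between cultures. Between 70.4% and 71.1% of gene spots were well above background. On the CA 100 μM array, 5.71% of the gene spots lay in a disturbed area where dim spots were brighter than on the other arrays, against at most 0.139% on the others. Of 11 hepatocyte and hepatoma markers, 9 to 10 were above background, with ALB and AFP among them and HNF4A above it only at CA 50 μM. TF had no usable signal on the untreated and CA 50 μM arrays and was counted as not above background there. The summed raw signal of these markers was 431466 intensity units untreated, 443002 at CA 50 μM and 435679 at CA 100 μM, with TF in the last sum only. Single markers of other cell types were also above background, 3 to 4 of 5 for fibroblasts (COL1A1 only at CA 100 μM, at 51.7 intensity units). For endothelium 3 of 4 were, and for leukocytes 3 of 3 with a probe, while DCN and KDR were not on any array. The summed raw signal of the fibroblast, endothelial and leukocyte markers ranged from 546 to 724, 799 to 1092 and 756 to 1021 intensity units in that order. Each was lowest on the untreated array. These sums were not scaled, and the untreated array also had the lowest 75th percentile, so their order may not hold after scaling. The part of these markers in the values below was not tested.

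Of the 12 probes of the axis, 12 were measured in each comparison, and IGFBP1 was the single probe at least 1.5-fold off the untreated array at either dose. It was lower at both doses. At CA 50 μM, 1 of the 12 probes was at least 1.5-fold lower, where 2.17% of all 22471 probes measured were, and 0 were higher, where 5.05% of all were. At CA 100 μM, 1 of the 12 was lower against 1.8% of 22267 probes, and 0 were higher against 2.51%. None of the 12 reached 2-fold at either dose, as 1.07% and 0.894% of all probes did. Counted by genes, through the brightest probe of each, 1 of 10 was lower at each dose (2.17% and 1.54% of all genes) and 0 were higher (4.15% and 1.65%). Most ratios were small and below 0. At CA 50 μM, 9 of the 12 probes were below 0, with a median log2 ratio of -0.24, where that of all probes was -0.01. At CA 100 μM, 10 of the 12 were below 0, with a median of -0.17 against -0.02. Both doses were set against the same untreated array, so that a high or low spot there enters both ratios. The share of higher probes among those changed 1.5-fold depended on the scaling. At CA 50 μM it was 70.0%, and 59.5% after quantile normalization, 60.0% after cyclic loess and 58.1% after centring on the median, while at 100 μM it was 58.3%, and 46.5% after quantile normalization.

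**Figure D1:**
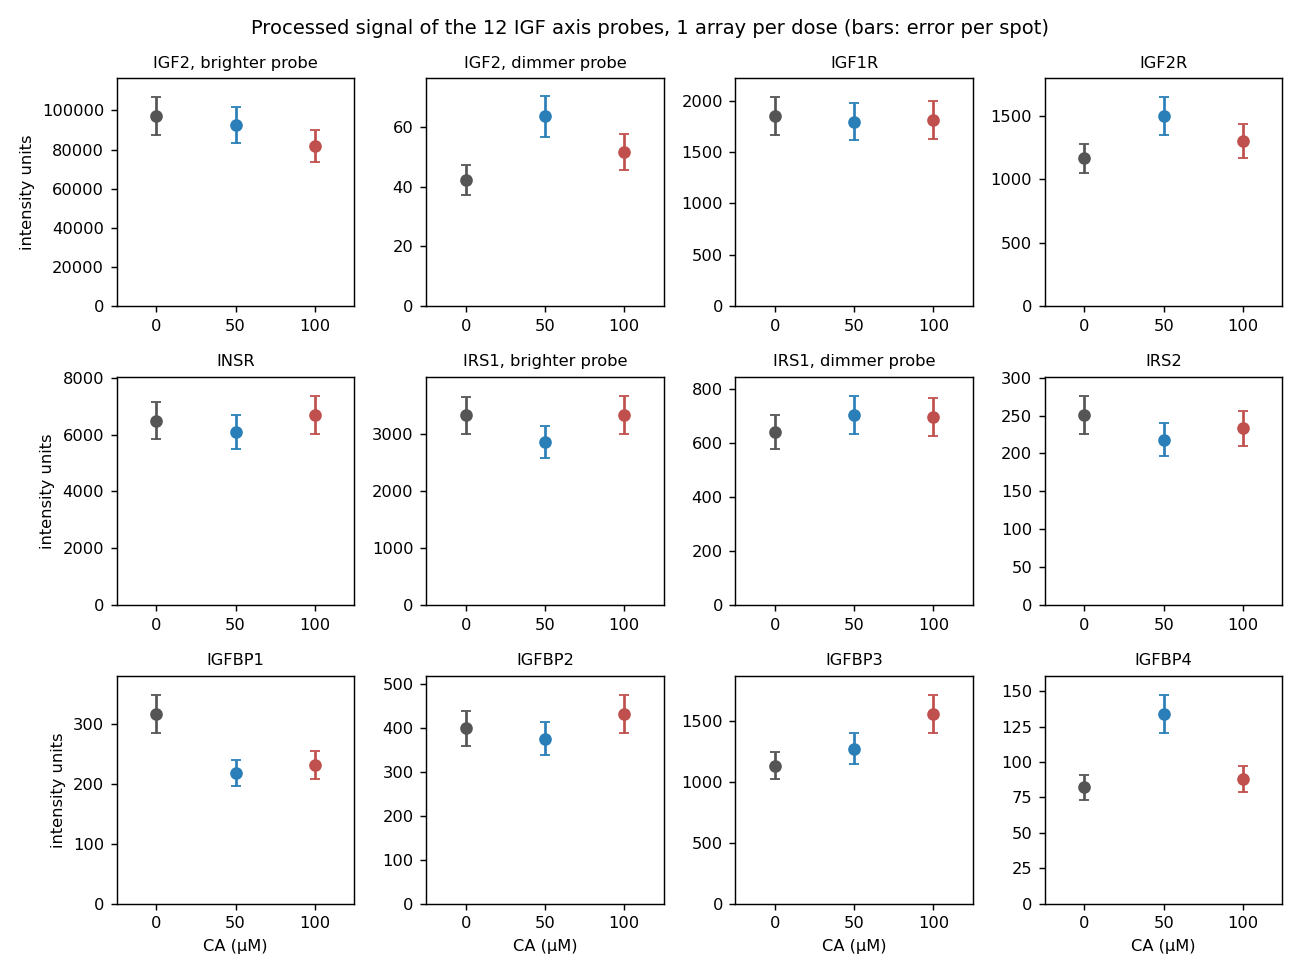
Processed signal in intensity units (vertical axes from 0, each probe on its own scale) of the 12 probes against the CA dose in μM, 1 array per dose, with bars for the error per spot that Feature Extraction states. IGFBP1 had 316 intensity units without CA and 217 and 232 with it, and IGFBP4 stood out at 50 μM with 134 against 82.1 and 87.9.

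IGF2, the ligand, had a bright and a dim probe, which went different ways. The brighter probe had 96963 ± 9696 intensity units (error per spot) on the untreated array, 92439 ± 9244 at 50 μM and 81687 ± 8169 at 100 μM. The untreated array was the highest and the CA 100 μM array the lowest. After scaling, the log2 ratio was -0.26 at 50 μM and -0.49 at 100 μM. Bright probes as a class lay below 0, with a median of -0.13 and -0.08 in the tenth of probes of like signal. A ratio at least as large as that of IGF2, in either direction, was found in 24.5% of that class at 50 μM and in 1.03% at 100 μM. The class was broad and also held INSR, at 6489 intensity units untreated. Of the hepatocyte and hepatoma markers, ALB and AFP were nearest to IGF2 in raw signal. From untreated to CA 100 μM, ALB went from 109428 to 100920 intensity units and AFP from 95490 to 83766. TTR went from 52086 to 44397, while SERPINA1 rose from 53870 to 63237 and GPC3 from 58390 to 61690. The IGF2 value at 50 μM moved to -0.01 in the log2 table that the authors deposited. That at 100 μM moved to -0.18 after quantile normalization. The spot on the CA 100 μM array lay in the disturbed area, and the spot on the CA 50 μM array had a background flag, and their part in these ratios was not tested. The dimmer IGF2 probe had 42.1, 63.5 and 51.5 intensity units in the order untreated, CA 50 μM and CA 100 μM. Its log2 ratio was 0.40 at 50 μM and 0.05 at 100 μM, and with normexp background correction these became 0.04 and -0.16, the latter with the opposite sign. IGF2 lies beside INS and the INS-IGF2 read-through gene, whose transcripts could share a probe with it.

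The receptors differed little between the arrays. IGF1R, the tyrosine kinase receptor for IGF, had 1847 intensity units untreated, 1794 at 50 μM and 1811 at 100 μM, values that differ by less than their spot errors of 185, 179 and 181 units. Scaled, its log2 ratio was -0.23 at 50 μM and -0.27 at 100 μM. INSR, the insulin receptor, had 6489, 6086 and 6681 intensity units in the same order, and log2 ratios of -0.28 and -0.20. The raw signals of both kinases differed between arrays by less than the error of a spot, and that of INSR at 100 μM was above the untreated one before scaling. IGF2R, which clears IGF2, had 1166, 1497 and 1303 intensity units, lowest on the untreated array. Its log2 ratio was 0.17 at 50 μM and -0.08 at 100 μM, and its spot carried a background flag on each of the 3 arrays. These ratios of IGF1R, INSR and IGF2R kept their sign under every alternative that gave a value.

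Both receptor substrates had ratios below 0 at both doses after scaling, and none reached 1.5-fold. The brighter IRS1 probe had 3317 intensity units untreated, 2852 at 50 μM and 3322 at 100 μM, so that by raw signal the array at 50 μM alone was low. Its log2 ratio was -0.41 at 50 μM, a size that 7.08% of probes of like signal reached, and -0.24 at 100 μM. The dimmer IRS1 probe had 639, 702 and 694 intensity units and log2 ratios of -0.06 and -0.12. The probes of IRS1, a substrate shared by the IGF and insulin receptors, thus differed in the size of the ratio at 50 μM. IRS2, the liver substrate with the CAAAACA core shown above, had 251, 218 and 233 intensity units in the order untreated, CA 50 μM and CA 100 μM. The untreated array was the highest, and the stated spot errors were 25.2, 22.0 and 23.5 units. The value at 100 μM lay within a spot error of each of the others. The untreated and 50 μM values lay further apart than either of their errors. The log2 ratio of IRS2 was -0.39 at 50 μM and -0.34 at 100 μM, where probes of like signal had medians of 0.05 and 0.02. In that class, 5.30% and 4.09% of probes were at or below IRS2. Counted in either direction, as for IRS1, 20.8% and 11.6% had a ratio at least as large.

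**Figure D2:**
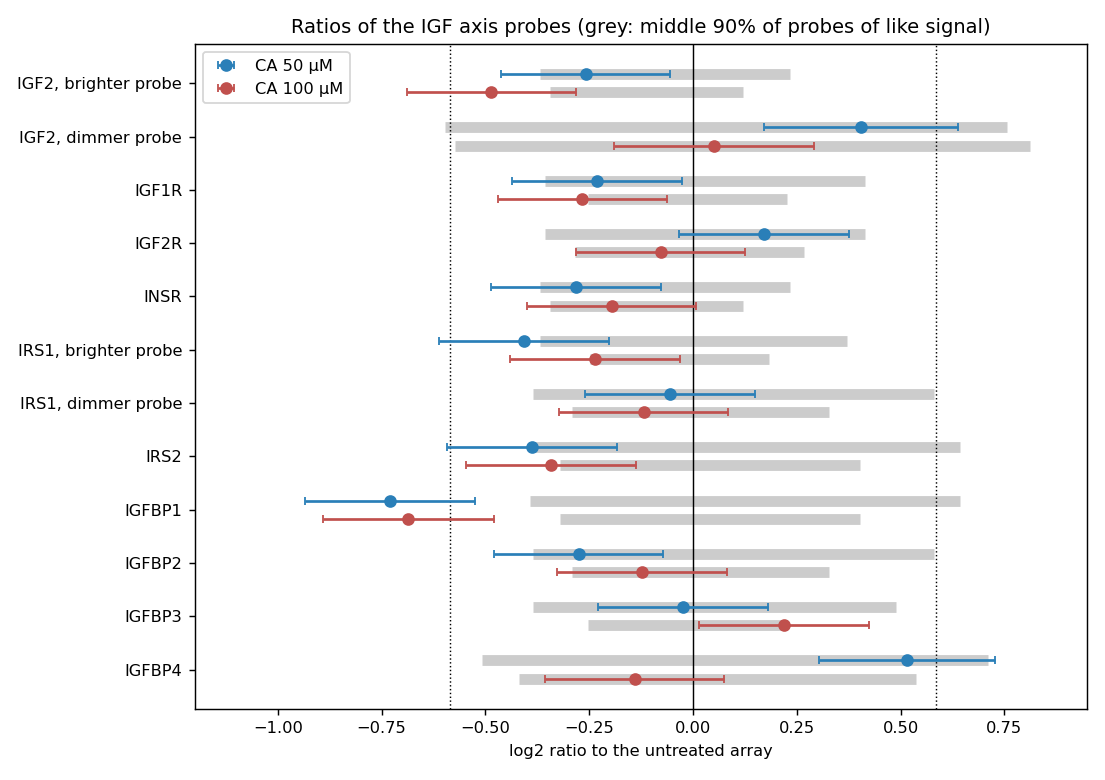
Log2 ratio to the untreated array (horizontal axis) of each probe at 50 μM (blue) and CA 100 μM (red), with bars for the stated error of both spots, grey bands for the middle 90% of probes of like signal (from the 5th to the 95th percentile) and dotted lines at 1.5-fold. IGFBP1 lies left of the lower dotted line at both doses, at -0.73 and -0.69, and every other probe lies between the dotted lines.

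IGFBP1, the binding protein that insulin suppresses in liver, showed the largest ratio of the axis at both doses. Its probe had 316 ± 31.7 intensity units untreated, 217 ± 21.9 at 50 μM and 232 ± 23.4 at 100 μM (error per spot). The untreated array was high and the treated arrays were alike, with a gap to the untreated array larger than the stated errors of the spots. IGFBP1 was 1.66-fold lower at 50 μM (log2 ratio -0.73) and 1.61-fold lower at 100 μM (log2 ratio -0.69). Among probes of like signal, 0.935% and 0.763% were at or below it, and the 5th percentile of that class was -0.39 and -0.32. Counted in either direction, 4.27% and 1.62% of that class had a ratio at least as large. Over 10 alternatives the ratio ranged from -0.80 to -0.61 at 50 μM and from -0.71 to -0.59 at 100 μM. It was at least 1.5-fold lower in 10 of 10 at each dose, but not all of these could move it. The filters on dim probes and the omission of saturated, flagged or disturbed spots did not touch its spots and returned the main value. With normexp the ratio at 100 μM was -0.5852, at the 1.5-fold limit of 0.5850. The value rests on 1 spot per array, and both ratios on the same untreated spot.

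IGFBP2 and IGFBP3 were printed 10 times, so that their spread between spots was measured. IGFBP2, a fetal and hepatoma-associated binding protein, had 400 intensity units untreated (spots from 382 to 423), 376 at 50 μM (357 to 411) and 433 at 100 μM (406 to 460), over the 9 spots used per array. The raw ranges of the untreated array and of either treated array overlapped. Its log2 ratio was -0.28 ± 0.082 at 50 μM and -0.12 ± 0.060 at 100 μM (SD over spots). IGFBP3, the main IGF carrier in serum, had 1132 intensity units untreated (1090 to 1194), 1269 at 50 μM (1218 to 1351) and 1554 at 100 μM (1463 to 1727), over 10 spots, and these ranges did not overlap. After scaling, the log2 ratio was 0.22 ± 0.066 at 100 μM, with single spots from 0.12 to 0.32, and -0.02 ± 0.056 at 50 μM. Among probes of like signal, 5.52% were at or above IGFBP3 at 100 μM, and 13.3% had a ratio at least as large in either direction. Both probes had 1 spot in the disturbed area of the CA 100 μM array. Over all alternatives, leaving out the disturbed areas included, IGFBP3 was between 0.20 and 0.23 at 100 μM. IGFBP3 lies next to IGFBP1 in the genome, and the ratios of these neighbours had opposite signs at 100 μM.

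**Figure D3:**
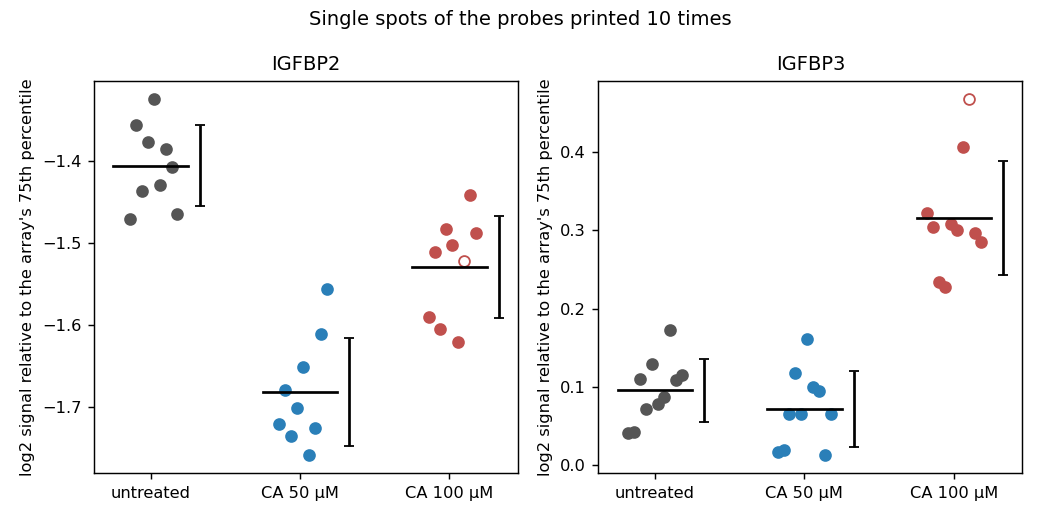
Single spots of the IGFBP2 and IGFBP3 probes, as log2 signal relative to the 75th percentile of each array (vertical axes, not from 0), with lines for the mean, bars for 1 SD and open circles for spots in the disturbed area. The IGFBP3 spots at 100 μM lie above every spot of the other arrays, while the IGFBP2 spots are highest on the untreated array on average.

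IGFBP4, a secreted binding protein that generally restrains IGF action, differed between the doses. Its probe had 82.1 ± 8.67 intensity units untreated, 134 ± 13.7 at 50 μM and 87.9 at 100 μM, so that the array at 50 μM was high and the others were alike. The log2 ratio was 0.52 at 50 μM and -0.14 at 100 μM. At 50 μM, 12.1% of probes of like signal reached or passed it, and 16.9% had a ratio as large in either direction. Set dose against dose, IGFBP4 was 1.58-fold lower at 100 μM than at 50 μM (log2 ratio -0.66). Of probes of like signal, 2.05% were at or below it, and 3.92% had a ratio as large in either direction. IGFBP4 was the 1 probe of 12 that was at least 1.5-fold lower in this comparison, as 2% of 22453 probes were. Of the 12, 0 were higher (1.62% of all) and 0 reached 2-fold (0.855%). By genes the count was 1 of 10 lower and 0 higher, where 1.54% and 1.4% of all genes were. With cyclic loess or normexp background correction IGFBP4 was below 1.5-fold, down to a log2 ratio of -0.47. The other 11 probes differed between the doses by log2 ratios from -0.35 (the dimmer IGF2 probe) to 0.24 (IGFBP3), and the median of the 12 was 0.01. IGFBP1 was at 0.04, so that its lower level was of like size at both doses. Among all probes changed 1.5-fold between the doses 44.8% were higher, which became 61.3% with cyclic loess and 26.5% without disturbed areas.

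A wider list of 72 genes of the IGF and insulin pathway, the 10 included, was read in the same way, and 71 of them had a probe (SH2B2 had none). Of the list, 64 genes were measured in each comparison, and a gene stands for its brightest probe. At CA 50 μM, 2 genes of the list exceeded 1.5-fold upward and 5 downward, with 26 above 0 and 38 below, and a median log2 ratio of -0.11 against -0.04 over all genes. At CA 100 μM, 0 were higher and 2 lower, IGFBP1 and IRS4, with 22 above 0 and 42 below, and a median of -0.06 against -0.03. From 50 to 100 μM, 1 gene of the list was lower, IGFBP4, and 0 were higher. The shares over all genes are those given above for the 10 genes.

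Outside the cell, IGF1, its serum carrier IGFALS, IGFBP5, the IGFBP protease PAPPA2 and the protease inhibitor STC1 did not reach a signal well above background in any group, nor did the orphan receptor INSRR. IGF2 was therefore the IGF ligand with a measured signal. The probe of INS had 30.2, 46.5 and 40.9 intensity units in the order untreated, CA 50 μM and CA 100 μM. H19, the noncoding RNA imprinted opposite to IGF2, was above background at 50 μM only, at 17.0 intensity units, which was at least 1.22-fold higher than untreated. IGFBP7, a binding protein with low affinity for IGF, had 168, 104 and 153 intensity units and was 1.84-fold lower at 50 μM (log2 ratio -0.88) with -0.38 at 100 μM. HTRA1, a secreted protease that can cut IGFBP proteins, had 71.4, 44.1 and 60.0 intensity units, and log2 ratios of -0.88 and -0.49. For both, the array at 50 μM was the low one. By their brightest probes, the genes of the proteins that bind IGF2 mRNA, IGF2BP1, IGF2BP2 and IGF2BP3, lay between 0.02 and 0.16 at 50 μM. At 100 μM they lay between 0.01 and 0.25. A dimmer IGF2BP2 probe was at 0.51 at 50 μM and -0.03 at 100 μM.

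**Figure D4:**
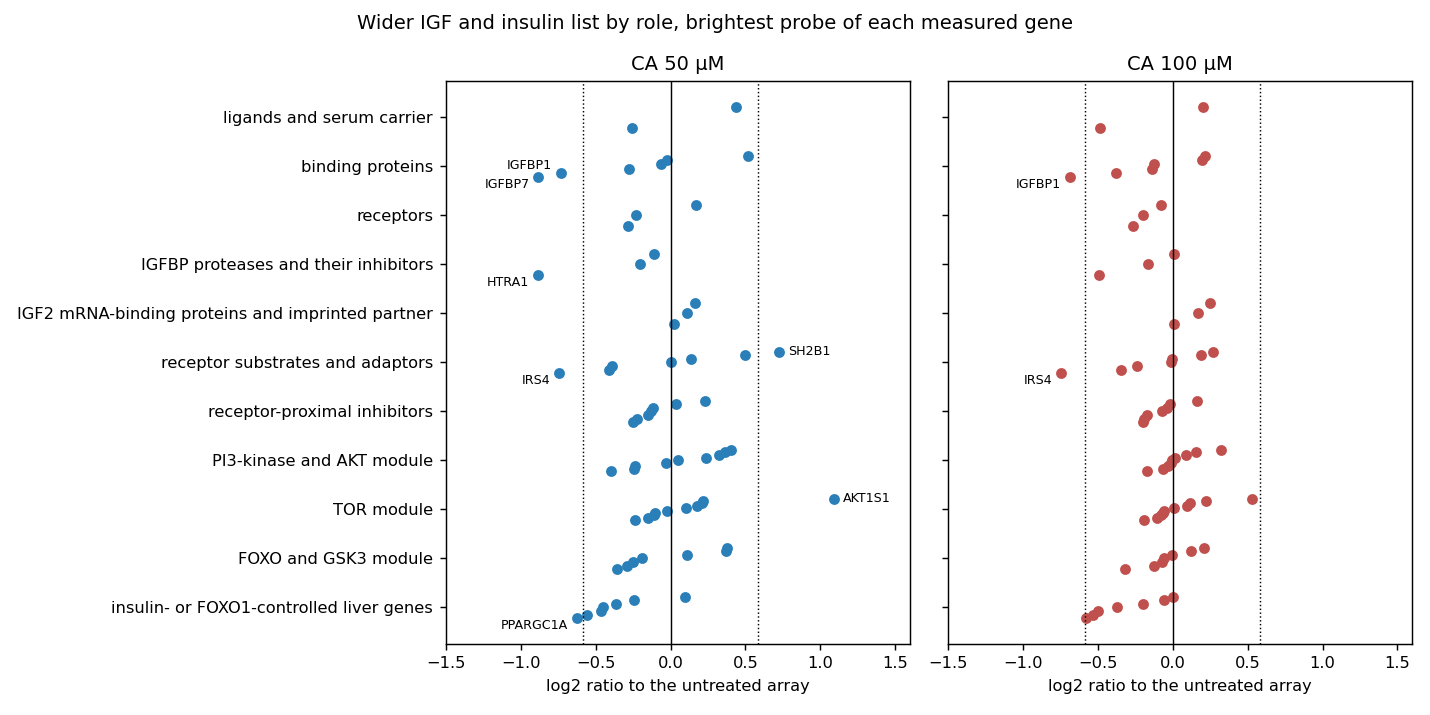
Log2 ratio to the untreated array (horizontal axes) of the measured genes of the wider list at 50 μM (left) and CA 100 μM (right), 1 point per gene by its brightest probe, in rows by role, with dotted lines at 1.5-fold and names beyond them. At CA 50 μM 2 genes lie right of the upper line and 5 left of the lower one, at 100 μM 0 and 2, and the bottom row of insulin- or FOXO1-controlled genes lies mostly left of 0.

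Within the cell, the changes of 1.5-fold fell on single, mostly dim probes. Among 7 substrates and adaptors measured, IRS4, a substrate with narrow tissue expression, had 29.0, 19.8 and 20.4 intensity units and a log2 ratio of -0.74 at each dose, while the adaptor SH2B1 had 28.8, 54.2 and 41.0 intensity units and ratios of 0.72 and 0.27. The 7 inhibitors that act at the receptor ranged from -0.25 (GRB10) to 0.23 (SOCS1) at 50 μM and from -0.20 (GRB10) to 0.17 (PTPN1) at 100 μM. In the PI3-kinase and AKT module, none of the 9 genes reported here reached 1.5-fold at either dose by its brightest probe. They ranged from -0.40 (PIK3R2, a regulatory subunit of PI3-kinase) to 0.40 (AKT1) at 50 μM, and from -0.17 (AKT2) to 0.32 (PIK3R1, another such subunit) at 100 μM. In the TOR module, AKT1S1 (PRAS40), an AKT substrate that inhibits the TOR complex, had 137, 332 and 233 intensity units. It was the highest of the list at both doses, at log2 ratios of 1.09 and 0.53, and the other genes of that module lay between -0.23 and 0.22 at 50 μM. The FOXO and GSK3 genes ranged from -0.36 (GYS2, liver glycogen synthase) to 0.37 (GYS1, its muscle form) at 50 μM, and from -0.32 (GYS2) to 0.21 (FOXO4) at 100 μM, with FOXO1 at -0.25 and -0.12. Probes of a gene did not always go together, since a second probe of SHC1 was at 0.74 and one of PDPK1 at 0.65 at 50 μM, where their brightest probes were at 0.13 and -0.24. A second AKT2 probe was at -0.01 at 50 μM and at 0.44 at 100 μM, and a further FOXO3 probe was at 0.30 and 0.28, where its brightest was at -0.29 and -0.07. With normexp background correction SH2B1, IRS4, HTRA1 and PPARGC1A were below 1.5-fold at 50 μM, while IGFBP1, IGFBP7 and AKT1S1 were not.

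Most liver genes under insulin or FOXO1 control had ratios below 0 that did not reach 1.5-fold. Of 7 such genes measured, 6 were below 0 at each dose, with median log2 ratios of -0.45 at 50 μM and -0.37 at 100 μM, against -0.04 and -0.03 over all genes. PPARGC1A was the 1 of these 7 that was at least 1.5-fold lower at 50 μM, where 2.17% of all genes were, and at 100 μM there were 0, where 1.54% of all genes were. Ratios as large as those of G6PC1, SREBF1, PDK4 and ANGPTL4, in either direction, were found in 20.2% to 33.0% of probes of like signal at 50 μM and in 17.3% to 62.8% at 100 μM. PCK1, the enzyme that commits carbon to glucose production, had 374 intensity units untreated, 290 at 50 μM and 296 at 100 μM. The treated arrays were alike and below the untreated one, and the log2 ratios of PCK1 were -0.56 and -0.58, just inside 1.5-fold. At 50 μM, 9.88% of probes of like signal had a ratio as large as that of PCK1, in either direction. PCK1 passed 1.5-fold at both doses with cyclic loess, median centring, quantile normalization and the deposited table, with ratios down to -0.62 and -0.60. PPARGC1A, a coactivator of the genes of glucose production, had 301, 222 and 251 intensity units and log2 ratios of -0.63 and -0.50. G6PC1, which releases free glucose, was at -0.36 and -0.20, with its CA 100 μM spot in the disturbed area.

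SREBF1, a regulator of fat synthesis that insulin raises in liver, was at -0.25 and -0.06 by its brightest probe, and at 0.39 and 0.07 by another. PDK4, a brake on glucose oxidation, was at -0.46 and -0.37, and ANGPTL4, an inhibitor of lipoprotein lipase, at -0.45 and -0.53. At 100 μM ANGPTL4 passed 1.5-fold with quantile normalization and in the deposited table, at -0.59 in each. SESN3, a FOXO target that restrains TOR, was at 0.09 and 0.003, and its sign changed with the processing. PCK1, PDK4, PPARGC1A and ANGPTL4 were below 0 at both doses under 10 of 10 alternatives. For these genes the filters on dim probes and the omission of spots returned the main value. Only the other scalings, normexp and the deposited table could move them. All of these ratios share the untreated array.

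**Figure D5:**
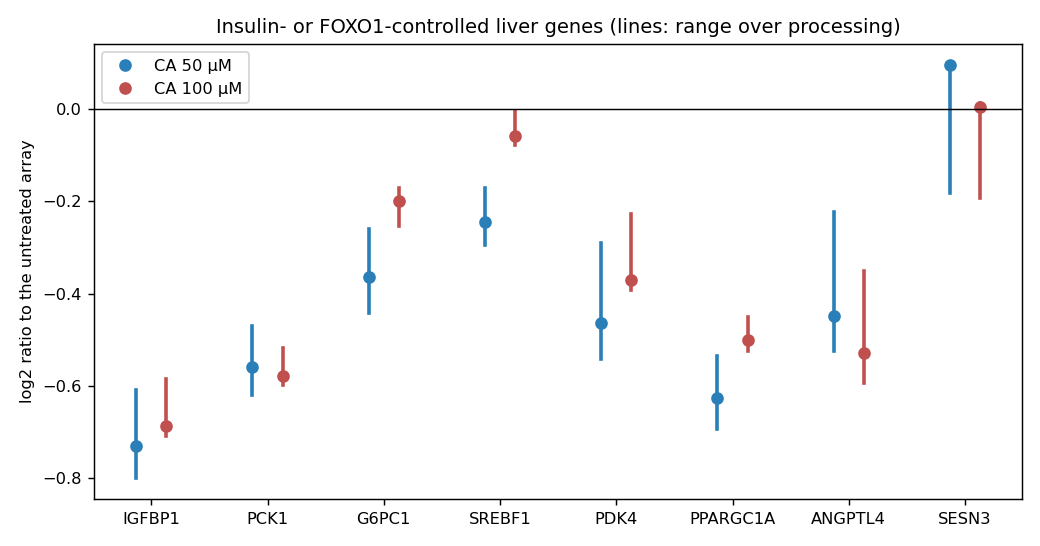
Log2 ratio to the untreated array (vertical axis) of IGFBP1 and 7 insulin- or FOXO1-controlled liver genes at 50 μM (blue) and CA 100 μM (red), with points for the values given in the text and lines for the range over the alternative processing. IGFBP1 is lowest at both doses, and SESN3 is the gene whose range crosses 0.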

How the data were processed

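The authors labelled amplified total RNA of Huh7 cells with Cy3 and hybridised 1 array per group. Scans were read by the authors with Feature Extraction 11.0.1.1. The intensity values of the deposited files have the background subtracted and are not scaled between arrays. The authors also deposited a table of log2 values whose columns share their quartiles and follow the log2 processed signal, used here as an alternative. Its method was not given in the sources used here.

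Groups came from the treatment label of each sample. Control spots and spots with an outlier flag were left out, log2 processed signal was scaled to the 75th percentile of each array, and probes printed 10 times were averaged in log2. A probe had to have 50% or more of its spots well above background to be called so. For a probe above background on 1 array only, the bound divides its signal by the higher of its own signal on the dim array and that of the dimmest probe above background there, after scaling. Probes were named through RefSeq accessions with a gene table of GRCh38.p14, which named 25764 of 34110 probes (75.5%). Probes of like signal were 1 of 10 equal classes by mean signal. The 10 genes and the gene lists were chosen with earlier results of these data known. Some genes of the wider list are not reported here and were left out of its counts. The text names all 10 genes, and of the wider list those changed at least 1.5-fold and the highest and lowest of a role, while the other insulin- or FOXO1-controlled genes and second probes were named after their values were seen.

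The values were also computed with cyclic loess, quantile normalization, median centring, normexp (offset 50, on median spot signals) without spots with a background flag, the deposited table, other filters on dim probes, the mean of all probes of each gene, and leaving out saturated spots, spots with a background flag, or disturbed areas. An area was called disturbed if, in a window of 17 rows by 7 columns, at least 25% of dim probes were at least 4-fold brighter on 1 array. With 1 array per group, the number of arrays limits the precision. Python 3.11.15, numpy 2.4.6, pandas 2.3.3, matplotlib 3.10.9, R 4.3.3 and limma 3.58.1 were used.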

Additional observations from a re-analysis of the deposited data

How the results depend on the processing

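There was no replicate to leave out, so no value here speaks to the spread between cultures. Leaving out disturbed areas gave no ratio for the brighter IGF2 probe at CA 100 μM, and leaving out background flags or normexp gave none for IGF2R or, at CA 50 μM, for that IGF2 probe. The member counts at 1.5-fold against the untreated array were the same under every alternative. The number of probes measured was not, because of the missing ratios just given. The dimmer IGF2 probe at CA 100 μM was below 0 with normexp and above 0 otherwise. Filters and the omission of spots could not move a probe whose single spots they did not touch. The count of 1 probe, 1 gene and 1 wider-list gene lower at CA 100 μM than at CA 50 μM, IGFBP4 each time, became 0 with cyclic loess and with normexp. In the wider list, normexp gave 1 in place of 2 genes higher and 2 in place of 5 lower at CA 50 μM, and 1 in place of 2 lower at CA 100 μM. Quantile normalization and the deposited table each gave 4 lower at CA 100 μM. Without a filter on dim probes, 4 were higher at CA 50 μM, 1 was higher and 5 lower at CA 100 μM, and 1 was higher and 4 lower between the doses. The cause of these changes was not tested. Among probes printed 10 times, the median SD of the log2 ratio between spots at CA 50 μM was 0.050 for the brightest of 4 signal classes and 0.13 for the dimmest.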
